A study of Mus musculus with 6 samples.

Results

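Tox-positive non-cycling CD8 T cells were the cell barcodes that carried T cell and CD8 transcripts, at least 1 transcript of the transcription factor gene Tox, and few transcripts of cell division. A barcode was admitted with at least 200 genes, at most 10% mitochondrial UMIs, at least 2 UMIs over Cd3d, Cd3e and Cd3g and at least 2 over Cd8a and Cd8b1. It also had to hold no UMI of Cd4, Foxp3, Csf1r or Cd79a and fewer than 2 over Mki67 and Top2a. A UMI (unique molecular identifier) marks 1 captured RNA molecule. The rule found 1578 of the 34607 barcodes of the series, and 2408 barcodes met it in all but Tox and served as the Tox-negative comparison. The members were chosen by their Tox UMI count and the other counts of the rule, so the share of Tox-positive cells is given as a description and Tox itself was left out of every test.

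The cells came from colon tumours of mice of 2 genotypes, SOX17KO and Control, dissociated with collagenase and DNase and sorted as viable (7-AAD-negative) CD45-positive EpCAM-negative cells for 10x Genomics 3' v3 sequencing. There were 3 pairs of libraries, each with 1 SOX17KO and 1 Control library. A pair is labelled 1 week and another 2 weeks, and the remaining pair, whose labels carry no time, is called untimed here. Tumours of 5 mice were pooled per condition according to the series description, and the strain, age, allele, Cre driver and the event from which the weeks were counted are not given in the sources used here. SOX17 is a transcription factor of the SRY-box family, and the label SOX17KO names its loss. Members numbered 570 in the untimed SOX17KO and 682 in the untimed Control library, 7 and 4 at 1 week, and 70 and 245 at 2 weeks, again with SOX17KO first. The libraries held 3163 to 7495 barcodes and 18281322 to 52150180 UMIs each. With 1 pooled library per genotype and pair, the pairs are the only replicates of a genotype difference, and the 1-week members were too few to enter any fit.

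CD8 T cells kill target cells through perforin and granzymes and release cytokines such as interferon gamma. Under lasting antigen exposure, as in tumours, they can take on a state called exhaustion, with several inhibitory receptors and lower effector output, and the nuclear factor TOX is known for setting up and maintaining that state. Within it, cells that keep the factor TCF1 (gene Tcf7) are known as progenitors, and those with TIM-3 (gene Havcr2) as the terminal form. Tox is also transcribed after short stimulation and in other lymphocytes, so a Tox transcript alone does not define exhaustion.

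The labelled identity was checked on genes that do and do not enter the rule. Trac, the constant region of the alpha chain of the T cell receptor, was detected in 78.4% and 82.6% of members in the untimed SOX17KO and Control libraries and in 85.7% and 79.2% at 2 weeks in SOX17KO and Control. Cd8b1 was found in 84.6% and 88.0% of untimed SOX17KO and Control members and in 75.7% and 74.7% of 2-week SOX17KO and Control members, which leaves some members called on Cd8a alone. Trdc, the delta chain constant region, was detected in 4.39% and 2.49% of untimed SOX17KO and Control members and in 2.86% and 0.408% of the 2-week members. Tox-negative cells had it in 0.386% and 1.91% of cases in untimed SOX17KO and Control. At 2 weeks these shares were 0% and 0.692%. Ncr1, an NK cell receptor, was found in at most 2.79% of members of any of these libraries. Klrb1c, a further NK cell marker, was found in 2.81% and 5.57% of untimed SOX17KO and Control members. At 2 weeks it was found in 7.14% of SOX17KO and 3.67% of Control members. Sox17 had no UMI in any member and 3 to 20 UMIs in a whole library, in both genotypes, so in these CD45-positive cells it does not check the labels.

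Some members also carried transcripts of other cell types. Barcodes with at least 10 UMIs over a list of myeloid, of B and plasma cell, or of epithelial and stromal markers are called mixed here, a criterion set after the data were seen. They made up 10.2% of untimed SOX17KO and 8.50% of untimed Control members, and 8.57% and 4.08% of the 2-week SOX17KO and Control members. Their median UMI count was 10255 to 12038 in these libraries, against 4074 to 5566 in the other members. They held 81.7% to 94.7% of all myeloid-list UMIs and 66.1% to 90.2% of all epithelial and stromal UMIs found in members. The criterion uses these same lists, so high shares follow in part from it. Of the B and plasma cell UMIs they held 63.7% and 18.5% in untimed SOX17KO and Control members. At 2 weeks that share was 0% in SOX17KO and 4.95% in Control. No doublet caller was run on the members, so the calls and the main list counts are also given without the mixed barcodes. No member barcode occurred in more than 1 library.

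The Tox-positive share of non-cycling CD8 T cells was far lower in SOX17KO than in Control in the untimed pair and differed by less than its counting error at 2 weeks. In the untimed pair it was 23.9% in SOX17KO (570 of 2385 cells, exact 95% interval 22.2% to 25.7%) and 76.5% in Control (682 of 891 cells, 73.6% to 79.3%). At 2 weeks it was 44.6% in SOX17KO (70 of 157 cells, 36.7% to 52.7%) and 45.9% in Control (245 of 534 cells, 41.6% to 50.2%). On the log2 odds scale the difference was -3.37 (95% interval -3.64 to -3.11) in the untimed pair and -0.07 (-0.59 to 0.44) at 2 weeks, with SOX17KO lower where negative. These intervals cover counting error only, since cells of 1 library are not replicates. Against all cells that passed the quality limits, Tox-positive cells made up 8.93% (8.24% to 9.66%) in untimed SOX17KO and 9.91% (9.21% to 10.6%) in untimed Control, so the untimed libraries differed mainly in their Tox-negative cells, 1815 in SOX17KO and 209 in Control. At 2 weeks Tox-positive cells made up 2.32% of passed cells in SOX17KO and 5.12% in Control. At 1 week 7 of 15 non-cycling CD8 T cells were Tox-positive in SOX17KO and 4 of 4 in Control.

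**Figure D1:**
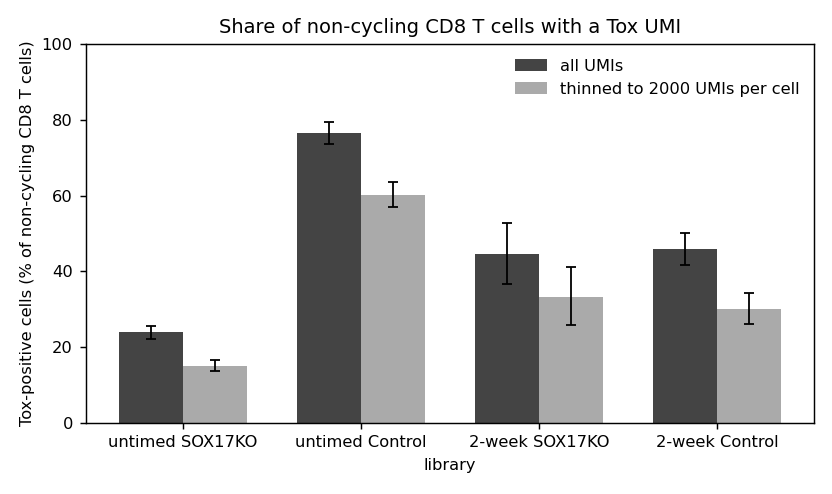
The bars give the share of non-cycling CD8 T cells with a Tox UMI in each library, from all UMIs and after thinning every cell to 2000 UMIs, with exact 95% binomial intervals. The untimed SOX17KO bar stands at 23.9% and the untimed Control bar at 76.5%, while the 2-week bars stand at 44.6% and 45.9%.

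Shares were also taken at equal depth. Members had more UMIs per cell than Tox-negative cells in every library fitted, with medians of 4356 against 3267 in untimed SOX17KO, 5735.5 against 4909 in untimed Control, 5725 against 5711 in 2-week SOX17KO and 5121 against 4642 in 2-week Control. After thinning each cell to 2000 UMIs the shares were 15.02% in untimed SOX17KO and 60.3% in untimed Control, and 33.1% in SOX17KO and 30.1% in Control at 2 weeks. B-type barcodes (at least 2 Cd79a UMIs and no CD3 UMI), thinned alike and with median counts of 2648 to 4203.5 UMIs, held a Tox UMI in 0% to 2.31% of cases. The amount of Tox per member differed in the same way: 259 of 570 untimed SOX17KO members were admitted on a single Tox UMI and 193 had 3 or more, while 104 of 682 untimed Control members had 1 and 506 had 3 or more. At 2 weeks 47 of 70 SOX17KO members and 105 of 245 Control members had 3 or more. Summed over members Tox stood at 442 CPM in SOX17KO and 1148 CPM in Control in the untimed pair, and 870.4 CPM in SOX17KO and 551 CPM in Control at 2 weeks, where CPM gives the UMIs of a gene per 1000000 UMIs of the sum. Cells just outside the rule are the Tox-negative cells, which had none by definition, and cycling cells lay outside it in every library, with Tox detected in 58 of 148 in untimed SOX17KO, 171 of 181 in untimed Control, 26 of 98 in 2-week SOX17KO and 200 of 412 in 2-week Control.

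What Tox-positive cells shared beyond Tox was asked by summing UMIs per library and Tox state and testing the 4 pairs of sums with edgeR's quasi-likelihood test, the library as a block. Few genes separated the states: Gzma was lower in Tox-positive cells, and no inhibitory receptor gene was called. The test called 1 gene higher and 1 gene lower of 9997 at a Benjamini-Hochberg adjusted p of 0.05, which is 0.01% of genes in each direction, with 317 genes higher and 208 lower at an unadjusted p under 0.05. Gzma, the lower gene, encodes granzyme A. The higher gene was Galnt18, which encodes a glycosyltransferase. Further down, Gzmf, Gzmk, Itga1, Slamf6, Tcf7, Maf, Tox2, Fosb, Nr4a1, Rsad2, Isg15 and Ifit1bl1 fall outside the rule for named genes. They were chosen after their values were seen. Galnt18 enters that rule by its ratio between genotypes in the untimed pair and not by the test of Tox states. Its 721 UMIs in untimed Control members lay in 109 cells, but its 38 UMIs in 2-week SOX17KO lay in 1 mixed barcode, and it had 4 UMIs in untimed SOX17KO and none in 2-week Control. Without mixed barcodes Galnt18 was not called, and the test called Gzma and Gzmf lower, 0.0214% of genes, and no gene higher.

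Of the cytotoxic effector genes 1 of 14 tested, Gzma, was called, as lower in Tox-positive cells. Over the list 13 had a negative fold change and 5 an unadjusted p under 0.05, which 2.08% of all genes had in that direction, and the median was -0.29 on the log2 scale, against -0.01 over all genes. The libraries did not share a direction, with median differences of -0.10 in untimed SOX17KO, 0.03 in untimed Control, -0.72 in 2-week SOX17KO and -0.31 in 2-week Control. Gzma was at 6.36 CPM in Tox-positive and 8.62 CPM in Tox-negative cells of untimed SOX17KO, at 165 and 460.1 CPM in untimed Control, at 365 and 1351 CPM in 2-week SOX17KO and at 184 and 538 CPM in 2-week Control. It was lower in the Tox-positive cells of all 4 libraries, with a log2 fold change of -1.55 ± 0.17 (SE, adjusted p = 0.0409 by edgeR's quasi-likelihood test). The gene was detected in few cells, and 80 of its 178 UMIs in 2-week SOX17KO members came from 1 cell. The call was lost when the cells with a Trdc UMI were left out, when a Cd8b1 UMI was required, and when the untimed Control, the 2-week SOX17KO or the 2-week Control library was left out, while the fold change stayed between -1.67 and -1.42 over the 4 fits that left out a library.

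Gzmb, encoding granzyme B, was at 67.8 CPM in Tox-positive and 98.6 CPM in Tox-negative cells of untimed SOX17KO and at 611 and 884 CPM in untimed Control. At 2 weeks it was at 609.7 and 1007 CPM in SOX17KO and at 755 and 1513 CPM in Control. All 4 libraries again had the lower value in Tox-positive cells (log2 fold change -0.75 ± 0.10, adjusted p = 0.105 by edgeR's quasi-likelihood test). Gzmf, a further granzyme gene with close sequence relatives beside it in the genome, had 5, 20, 0 and 3 UMIs in the members of untimed SOX17KO, untimed Control, 2-week SOX17KO and 2-week Control. Its level in Tox-negative cells was 1.25, 58.1, 492 and 75.1 CPM in the same order, carried by 1 to 4 thinned cells a library, and without the mixed barcodes it was called lower (fitted log2 fold change -4.45, which is no bound since 1 of the sums held no UMI, adjusted p = 0.0161 by edgeR's quasi-likelihood test). Reads of such relatives may be shared between them, so its value is uncertain. Gzmk, for granzyme K, was at 26.3 CPM in Tox-positive and 29.6 CPM in Tox-negative cells of untimed SOX17KO, 90.3 and 64.4 CPM in untimed Control, 84.2 and 127 CPM in 2-week SOX17KO and 144 and 131 CPM in 2-week Control, so both Control libraries had the higher value in Tox-positive cells. Prf1, the gene of perforin, had its higher value in Tox-positive cells in 1 of the 4 fitted libraries, untimed Control, at 341 against 181 CPM. The fitted values of Gzmk (-0.02 ± 0.16), of Prf1 (-0.29 ± 0.30), of the granule protein NKG7 (Nkg7, -0.04 ± 0.13) and of serglycin (Srgn, -0.22 ± 0.10), given as log2 fold changes, did not pass, and nor did Ctla2a at -0.28 ± 0.17.

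**Figure D2:**
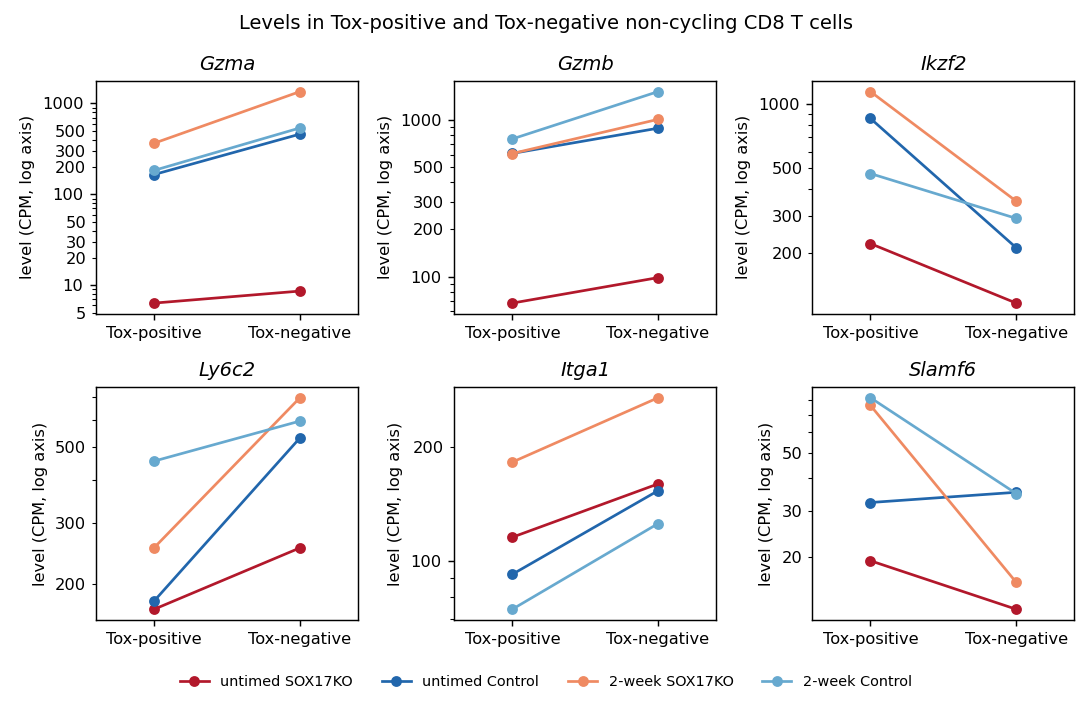
Each line joins the level of a gene in Tox-positive and in Tox-negative cells of 1 library, in CPM on a log axis. Gzma, Gzmb, Ly6c2 and Itga1 lie lower in the Tox-positive cells of all 4 libraries, Ikzf2 lies higher in all 4, and Slamf6 lies higher in all but the untimed Control library.

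The transcription factor list of exhaustion and activation had a median log2 fold change of 0.01 over 22 genes, with no call and 4 genes higher and 1 lower at an unadjusted p under 0.05, where 3.17% of all genes were higher. Ikzf2, which encodes the Ikaros family factor Helios, also known from regulatory T cells, had the smallest p among them. Its level was 222 CPM in Tox-positive and 117 CPM in Tox-negative cells of untimed SOX17KO, 857 and 212 CPM in untimed Control, 1146 and 351 CPM in 2-week SOX17KO and 473 and 291 CPM in 2-week Control. The Tox-positive value was higher in 4 of 4 libraries (log2 fold change 1.28 ± 0.20, adjusted p = 0.154 by edgeR's quasi-likelihood test), so it missed the threshold over all genes. It passed once the mixed barcodes were left out and cells thinned to 2000 UMIs, with the Tox state set again from the thinned counts. Eomes, a T-box factor of effector and memory cells (0.58 ± 0.14), and Maf (0.88 ± 0.34), a factor gene of several T cell states, had positive log2 fold changes that did not pass. Rora, Rbpj, Id2 and the orphan receptor genes Nr4a2 and Nr4a3 lay between -0.23 and 0.03. Tox2, the closest relative of Tox, was sparse, with 11 and 79 UMIs in untimed SOX17KO and Control members and 7 and 22 in 2-week SOX17KO and Control members.

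Levels also differed with the number of Tox UMIs per cell. In untimed Control Ikzf2 stood at 212, 375, 516 and 962 CPM in cells with 0, 1, 2 and 3 or more Tox UMIs, and in untimed SOX17KO at 117, 158, 231 and 285 CPM. Gzmb stood at 884, 758, 654 and 584 CPM in untimed Control and at 1513, 1076, 950.3 and 417 CPM in 2-week Control along the same steps. Each of these 4 orders ran in 1 direction, and the others did not. Ikzf2 in 2-week Control stood at 291, 364, 142 and 685 CPM, and Gzmb in untimed SOX17KO at 98.6, 59.9, 84.2 and 67.5 CPM. In the few cells of 2-week SOX17KO neither gene followed the steps, with 351, 72.4, 946 and 1463 CPM of Ikzf2 and 1007, 559, 0 and 692 CPM of Gzmb. Cells with more Tox UMIs were also deeper, with medians of 4909 UMIs at 0 and 6207 at 3 or more in untimed Control and 3267 and 5585 in untimed SOX17KO, and the part of depth in these levels was not tested.

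**Figure D3:**
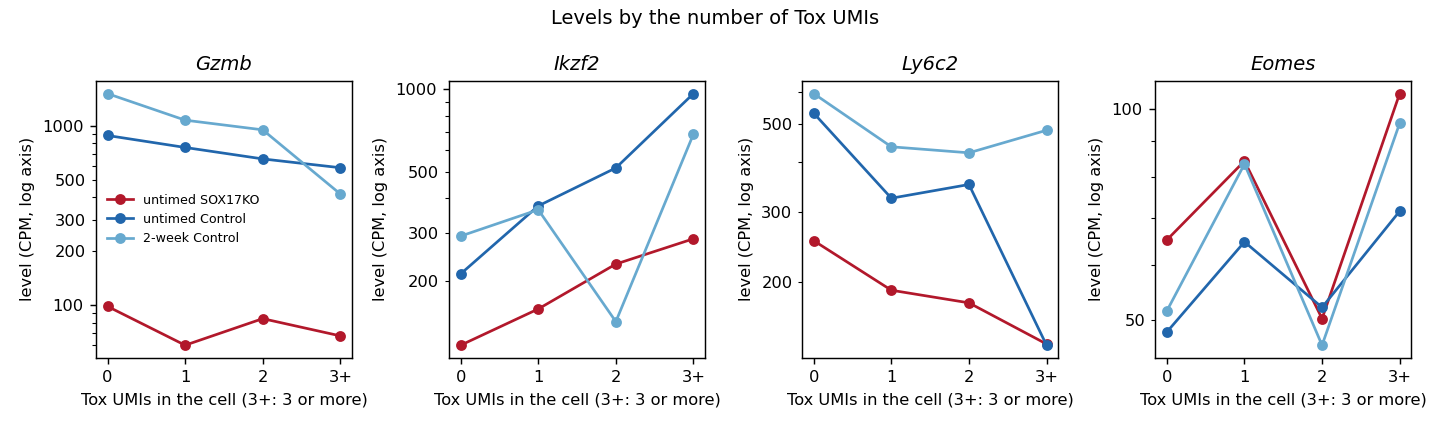
Levels of 4 genes in CPM on a log axis are shown in cells with 0, 1, 2 and 3 or more Tox UMIs, for the 3 libraries with at least 50 cells at each step, so that 2-week SOX17KO is not drawn. Ikzf2 climbs at each step in both untimed libraries but not in 2-week Control, Gzmb declines at each step in both Control libraries but not in untimed SOX17KO, and Eomes follows no order.

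The inhibitory receptor list of 14 genes had a median log2 fold change of 0.12 and no call. At an unadjusted p under 0.05, 2 of its genes were higher, where 3.17% of all genes were. In single libraries the median difference on the log2 scale was 0.00 in untimed SOX17KO, 0.75 in untimed Control, -0.05 in 2-week SOX17KO and -0.17 in 2-week Control, so the 4 libraries did not share a direction. Pdcd1, encoding PD-1, was at 261 CPM in Tox-positive and 271 CPM in Tox-negative cells of untimed SOX17KO and at 388 and 299 CPM in untimed Control. At 2 weeks its level was 174 and 210.3 CPM in SOX17KO and 240.3 and 278 CPM in Control. Havcr2, encoding TIM-3, was higher in Tox-positive cells of untimed Control (243 against 122 CPM) and lower in those of 2-week SOX17KO (133 against 305 CPM) and 2-week Control (233 against 319.5 CPM). Neither gene passed the test (-0.06 ± 0.12 and -0.17 ± 0.27 on the log2 scale). Ctla4, Entpd1 and Lag3 gave 0.08 ± 0.16, -0.10 ± 0.21 and 0.24 ± 0.20 on that scale. Cd200r1, the receptor of CD200, was at 0.96 ± 0.27 (adjusted p = 0.591 by edgeR's quasi-likelihood test) and not called.

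After thinning to 2000 UMIs, a Pdcd1 UMI was found in 36.6% of Tox-positive and 35.5% of Tox-negative cells of untimed SOX17KO and in 50.2% and 40.6% of untimed Control. At 2 weeks the Pdcd1 shares were 22.9% and 25.3% in SOX17KO and 29.8% and 37.6% in Control, and in B-type barcodes at most 0.474% of any library. Unthinned, 57.4%, 73.6%, 38.6% and 48.2% of the members of untimed SOX17KO, untimed Control, 2-week SOX17KO and 2-week Control had a Pdcd1 UMI. Tcf7, the progenitor factor gene, was found after thinning in 14.4% of Tox-positive and 8.35% of Tox-negative cells of untimed SOX17KO, in 34.3% and 9.2% of 2-week SOX17KO and in 22.7% and 15.5% of 2-week Control, and B-type barcodes stood at 0% to 1.42%. Untimed Control ran the other way, with 11.3% of Tox-positive and 24.0% of Tox-negative cells.

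Within members Tcf7 was rarely found in the same cell as Pdcd1 or Havcr2, in 1 to 19 cells a library. Pdcd1 and Tcf7 UMIs were found together in 3.51% of thinned members of untimed SOX17KO, 1.98% of untimed Control, 1.43% of 2-week SOX17KO and 1.68% of 2-week Control. The products of the single shares were 5.28%, 5.66%, 7.84% and 6.77% in that order, higher in all 4 libraries. Havcr2 and Tcf7 occurred together in 2.77%, 1.07%, 1.43% and 0.42% of members, against products of 2.88%, 3.53%, 4.41% and 6.10%. Pdcd1 and Havcr2 went the other way, at 8.87%, 19.5%, 5.71% and 12.6% against products of 7.31%, 15.7%, 2.94% and 8.02%. Tcf7 and Slamf6, a receptor gene often used beside Tcf7 as a progenitor marker, were found together in 0.37%, 2.44%, 12.9% and 5.04% of members against products of 0.533%, 0.636%, 5.39% and 3.15%, above the product in all libraries but untimed SOX17KO. These shares are a description of cells within each library and carry no test.

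The progenitor and memory list had a median log2 fold change of 0.10 over 20 genes, none called. At an unadjusted p under 0.05, 3 of them were higher, where 3.17% of all genes were. The library medians were 0.17 in untimed SOX17KO, -0.53 in untimed Control, 1.14 in 2-week SOX17KO and 0.29 in 2-week Control. Satb1, Bach2, Ltb, Foxo1, Il7r and Lef1, the most abundant of the list, lay between -0.29 and 0.29 in the fit. Bach2, which encodes a repressor of effector differentiation, was at 515 CPM in Tox-positive and 233 CPM in Tox-negative cells of 2-week SOX17KO and at 526 and 313 CPM of 2-week Control. In untimed Control it was lower in Tox-positive cells, at 349.9 against 549 CPM, and in untimed SOX17KO it was at 457 and 384 CPM. Slamf6 was at 0.77 ± 0.28 (adjusted p = 0.883 by edgeR's quasi-likelihood test).

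No gene of tissue residency was called. Of 14 tested, 11 had a negative log2 fold change in Tox-positive cells and 6 an unadjusted p under 0.05 in that direction, which 2.08% of all genes had, with a median of -0.24. Itga1, the collagen-binding integrin subunit CD49a, was at 115 CPM in Tox-positive and 159.9 CPM in Tox-negative cells of untimed SOX17KO, 92.0 and 153 CPM in untimed Control, 183 and 271 CPM in 2-week SOX17KO and 74.3 and 125 CPM in 2-week Control. It was lower in 4 of 4 libraries (-0.67 ± 0.10 on the log2 scale, adjusted p = 0.148 by edgeR's quasi-likelihood test). The list also held Ly6c2, a surface protein gene of memory and effector CD8 T cells, so its counts and median do not stand for residency alone. Ly6c2 was lower in all 4 as well (-1.02 ± 0.20, adjusted p = 0.326 by the same test), while Cxcr6, Cd69 and Rgs2 lay between -0.09 and 0.05. Of the NK receptor list, 11 of 15 genes had a positive fold change and none was called. Klrc1, encoding the inhibitory receptor NKG2A, was at -0.54 ± 0.14, and the list median was 0.23. In untimed Control its median difference was 0.28 with the mixed barcodes and -0.07 without them.

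Markers of other lymphocytes were tested too, and none was called. Tcrg-C2, a gamma chain constant region gene of the gamma-delta receptor, stood at 14.5 and 7.93 CPM in Tox-positive and Tox-negative cells of untimed SOX17KO and 53.9 and 29.9 CPM in untimed Control. All 3 tested of the gamma-delta list of 9 had a positive fold change at an unadjusted p under 0.05, which 3.17% of all genes had. Their summed level was 33.6 to 105 CPM in Tox-positive and 12.8 to 39.9 CPM in Tox-negative sums, and their part in the results was not tested beyond the fit without Trdc cells. The CD4 T cell list, whose 4 tested genes Cd40lg, Il2ra, Tnfrsf4 and Ikzf2 exclude the Cd4 and Foxp3 of the rule, had 3 positive fold changes and 2 at an unadjusted p under 0.05. Its summed level was 633 to 1252 CPM in Tox-positive and 302 to 585 CPM in Tox-negative sums, the Tox-positive value higher in 4 of 4 libraries. Ikzf2, whose levels are given above, made up most of the Tox-positive sum in untimed Control and in both 2-week libraries. The list was not summed without Ikzf2, so this direction does not speak for its other genes. Of the NK cell and innate lymphocyte list, 4 of 6 tested genes were positive and 2 at an unadjusted p under 0.05, with a median of 0.40 and summed levels of 279.5 to 417 CPM in Tox-positive and 239 to 319 CPM in Tox-negative sums. Without mixed barcodes all 6 were positive and 4 at an unadjusted p under 0.05, with a median of 0.79. The part of such cells in the results was not tested.

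Other programmes had medians near 0 in the fit over the libraries. The T cell receptor signalling list had a median of 0.05 over 29 genes, AP-1 and immediate early genes -0.05 over 22, heat shock genes -0.01 over 12, MHC class I genes -0.06 over 20, type I interferon-stimulated genes -0.10 over 31 and respiratory chain genes -0.09 over 22, all on the log2 scale with no call. Of the respiratory chain genes 21 of 22 were negative, with 1 at an unadjusted p under 0.05, which 2.08% of all genes had in that direction. Single libraries could differ more. Type I interferon-stimulated genes had medians of -0.04, -0.28, 0.51 and 0.07 in untimed SOX17KO, untimed Control, 2-week SOX17KO and 2-week Control. Glycolysis and hypoxia genes, at -0.10 in the fit over 22 genes with no call, had 0.02, 0.43, -0.62 and -0.02 in that order. Whether the Tox-positive to Tox-negative difference depended on genotype was tested as an interaction, and edgeR's quasi-likelihood test called no gene of 9997, with 114 and 80 genes at an unadjusted p under 0.05 in the 2 directions and 1 gene under limma-voom. Nothing below on genotype is called particular to Tox-positive cells. The same kind of test between the untimed and the 2-week libraries called 1 gene, Retnla, a gene known from macrophages, of which 383 of 402 UMIs in 2-week SOX17KO members lay in 1 barcode, and limma-voom called 0.

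SOX17KO was then compared with Control within Tox-positive cells, with the 2 pairs as replicates, pair and genotype as terms and 1 residual degree of freedom. The genes called higher in SOX17KO included Klf4 and several known from stromal and vascular cells, no gene of the cytotoxic or of the cytokine and chemokine list was called, and no gene was called once mixed barcodes were left out. edgeR's quasi-likelihood test called 21 genes higher and 0 lower of 10316, which is 0.204% and 0%, with 581 and 367 genes, or 5.63% and 3.56%, at an unadjusted p under 0.05. Of the 12 with the largest fold, Ldb2, Timp3, Sema3a, Stox2, Robo1, Ltbp4, Pdpn, Cxcl12, Cav1, Cyyr1, Prr16 and Nfib, several are known from stromal and vascular cells. Ltbp4, a latent TGF-beta binding protein of the matrix, had 101 UMIs in untimed SOX17KO, 2 in untimed Control, 41 in 2-week SOX17KO and 2 in 2-week Control. Mixed barcodes held 98.0% of its UMIs in untimed SOX17KO and 97.6% in 2-week SOX17KO. Over the 6 tested genes of the epithelial and stromal list, the summed level in members was 661 CPM in untimed SOX17KO and 239.5 CPM in untimed Control. At 2 weeks it was 459.8 CPM in SOX17KO and 657 CPM in Control. Without mixed barcodes only 2 genes of the list were tested, and their sum was 64.5 to 152 CPM. The 12 tested genes of the myeloid list stood at 1942 CPM in untimed SOX17KO and 1492 CPM in untimed Control. At 2 weeks they stood at 684 CPM in SOX17KO and 614 CPM in Control. Without mixed barcodes 6 genes of that list were tested, at 73.4 to 156 CPM. The sums with and without mixed barcodes thus cover different genes and cannot be compared directly. Ldb2 had 62 UMIs in 2-week SOX17KO, 60 of them in 1 barcode. Without mixed barcodes the test called 0 genes in either direction, with 416 higher and 384 lower at an unadjusted p under 0.05, and limma-voom on the same sums called 45 and 34.

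The AP-1 and immediate early genes had the highest untimed median of the lists of T cell programmes. These genes are transcribed within minutes of stimulation, stress or tissue dissociation. In the untimed pair the median log2 ratio of SOX17KO over Control over 22 genes was 1.35, against -0.08 over all genes, and 17 genes were past a 2-fold difference, which 6.96% of all genes were. At 2 weeks the median was 0.48 against 0.05, with 4 genes past 2-fold, where 10.4% of all genes were. The fit over both pairs had 21 of 22 genes positive and 1 called, Klf4. Of the positive genes 16 had an unadjusted p under 0.05, which 5.63% of all genes had in that direction. Tox-negative cells of the same libraries had medians of 1.14 in the untimed pair and 0.02 at 2 weeks, and members without mixed barcodes 1.42 and 0.30. Without them 16 genes were past 2-fold higher in the untimed pair and 2 at 2 weeks, where 4.42% and 7.37% of all genes were. Heat shock genes, which also respond to stress, had medians of -0.32 and -0.30.

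Klf4, a Krüppel-like factor gene, was at 152 CPM in SOX17KO and 16.5 CPM in Control in the untimed pair, and 39.0 CPM in SOX17KO and 9.81 CPM in Control at 2 weeks. SOX17KO was higher in both pairs (log2 fold change 2.83 ± 0.37, adjusted p = 0.0465 by edgeR's quasi-likelihood test). Mixed barcodes held 51.7% and 44.9% of its UMIs in untimed SOX17KO and Control and 78.9% and 57.1% in the 2-week SOX17KO and Control libraries, and without them the adjusted p was 0.232 by the same test. Fosb, an AP-1 subunit gene, was at 531 CPM in SOX17KO and 75.3 CPM in Control in the untimed pair, and 71.9 CPM in SOX17KO and 53.2 CPM in Control at 2 weeks. Its log2 ratio was 2.82 (95% interval 2.65 to 2.99) in the untimed pair and 0.43 (95% interval -0.19 to 1.03) at 2 weeks, so the 2-week interval held 0. B-type barcodes, which transcribe these genes too, had a Fosb UMI in 15.2%, 20.9%, 13.1% and 7.14% of cases in untimed SOX17KO, untimed Control, 2-week SOX17KO and 2-week Control, against 51.0%, 9.91%, 10.0% and 8.4% of thinned members in the same order. The 2-week Control share of B-type barcodes was 1 of 14, and all shares of B-type barcodes in that library rest on these 14. Nr4a1, an orphan receptor gene induced by T cell receptor signals, was at 747 CPM in SOX17KO and 124 CPM in Control in the untimed pair, and 152 CPM in SOX17KO and 116 CPM in Control at 2 weeks. B-type barcodes had a Nr4a1 UMI in 53.1% of cases in untimed SOX17KO and 44.0% in untimed Control, and a Fos UMI in 28.9% and 36.6%. At 2 weeks they had Nr4a1 in 38.5% and 42.9% and Fos in 20.8% and 35.7%, in SOX17KO and Control. Junb (1.13 in the untimed pair and 0.57 at 2 weeks), Jund (0.96 and 0.23), Zfp36l2 (1.02 and 0.26) and Btg2 (1.44 and 0.22) had positive log2 ratios in both pairs. Fos was at 1.76 and 1.16, but without mixed barcodes its 2-week ratio was 0.07.

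**Figure D4:**
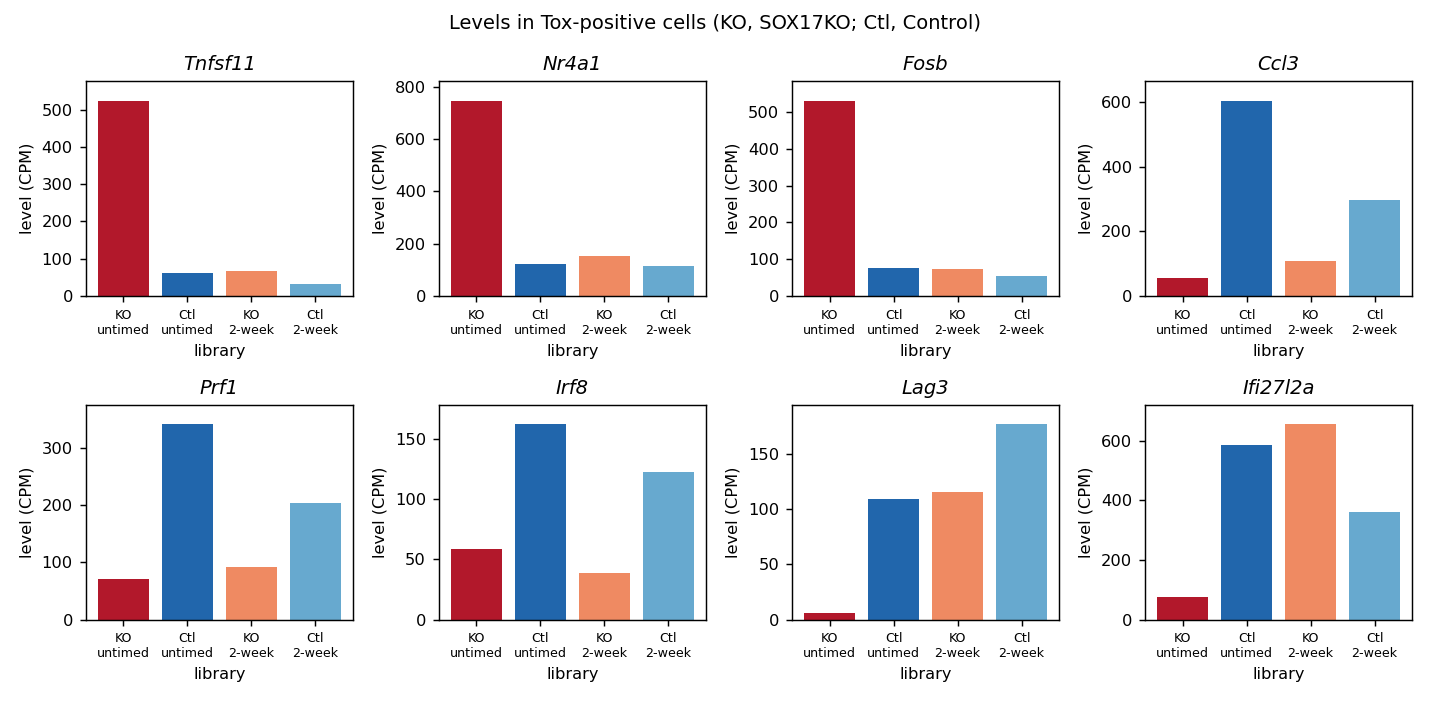
Bars give the level in Tox-positive cells of each library in CPM for 8 genes. Tnfsf11, Nr4a1 and Fosb stand out in the untimed SOX17KO library, Ccl3, Prf1 and Irf8 are lower in SOX17KO in both pairs, and Lag3 and Ifi27l2a are lowest in untimed SOX17KO.

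Genes of T cell receptor signalling and its feedback had smaller positive ratios, with a median log2 ratio of 0.49 in the untimed pair and 0.12 at 2 weeks over 30 genes and no call. Nfkbia, an inhibitor of NF-kappa-B, was at 1255 CPM in SOX17KO and 382 CPM in Control in the untimed pair, and 304 CPM in SOX17KO and 174 CPM in Control at 2 weeks (1.30 ± 0.31 in the fit, adjusted p = 0.175 by edgeR's quasi-likelihood test). On the log2 scale the untimed ratios of Tnfaip3 and Ptpn22 were 1.48 and 0.53, and their 2-week ratios 0.34 and 0.26. Cblb, a ubiquitin ligase gene that restrains activation, was at -0.65 and -0.13. Rora, encoding an orphan receptor of tissue and type 17 lymphocytes, was at 1823 CPM in SOX17KO and 389 CPM in Control in the untimed pair, and 657 CPM in SOX17KO and 390.2 CPM in Control at 2 weeks.

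No cytotoxic gene was called between the genotypes. Of 13 tested, 7 were past 2-fold lower in the untimed pair, where 7.89% of all genes were, and 1 at 2 weeks, where 6.42% were. Without mixed barcodes these counts were 7 and 3, where 8.44% and 7.55% of all genes were. The medians were -1.01 and -0.31 on the log2 scale. Prf1 was at 71.5 CPM in SOX17KO and 341 CPM in Control in the untimed pair, and 92.4 CPM in SOX17KO and 203 CPM in Control at 2 weeks. Both SOX17KO values were below both Control values (-1.74 ± 0.30 on the log2 scale, adjusted p = 0.0853 by edgeR's quasi-likelihood test). Gzmb was at -3.17 in the untimed pair and -0.31 at 2 weeks, and Nkg7 at -1.01 and -0.78. Gzma differed in sign, with -4.70 (95% interval -5.40 to -4.08) in the untimed pair and 0.99 (95% interval 0.71 to 1.27) at 2 weeks. In 2-week SOX17KO 80 of its 178 UMIs lay in 1 of 11 cells with the gene, and the interval does not cover this concentration.

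The cytokine and chemokine list ran in both directions, with no call. Of 17 genes tested, 5 were past 2-fold higher and 6 past 2-fold lower in the untimed pair, where 6.96% and 7.89% of all genes were. At 2 weeks 3 were higher and 5 lower, where 10.4% and 6.42% were, and the medians were -0.41 and -0.45 on the log2 scale. Ccl3, encoding MIP-1-alpha, was at 55.4 CPM in SOX17KO and 605 CPM in Control in the untimed pair, and 107 CPM in SOX17KO and 297 CPM in Control at 2 weeks (log2 fold change -2.53 ± 0.44, adjusted p = 0.0853 by edgeR's quasi-likelihood test). It was the lower of each pair in SOX17KO by more than its counting error, with log2 ratios of -3.45 (95% interval -3.67 to -3.23) and -1.48 (95% interval -1.92 to -1.06). Ccl4 was at -1.14 and -1.76, Ccl5 at -1.18 and -0.69, and Xcl1, which attracts cross-presenting dendritic cells, at -1.73 and -1.37. Ifng, encoding interferon gamma, was higher in untimed SOX17KO (492 against 261 CPM in Control) and lower in 2-week SOX17KO (82.1 against 244 CPM). Tnfsf11, which encodes RANKL, was at 524 CPM in SOX17KO and 61.5 CPM in Control in the untimed pair. At 2 weeks it was at 65.7 CPM in SOX17KO and 30.8 CPM in Control. It was higher in SOX17KO in both pairs (2.32 ± 0.48, adjusted p = 0.121 by the same test). The 2-week SOX17KO level of Tnfsf11 rested on 32 UMIs in 11 members, with 16 of the UMIs in 1 cell. The Tox-negative cells of those libraries held 488 CPM in untimed SOX17KO, 44.5 CPM in untimed Control, 74.8 CPM in 2-week SOX17KO and 38.8 CPM in 2-week Control, close to the members of the same library.

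Genes with the same direction in both pairs and the largest smaller ratio were ranked without mixed barcodes, while the levels in CPM given for them include mixed barcodes. The 10 higher in SOX17KO were Gpr183, Lrig1, Pim1, Vav3, Abcb1b, Aff1, Emb, Zfp36l1, Ccm2 and Fhit. Gpr183, an oxysterol receptor of lymphocyte positioning, was at 252 CPM in SOX17KO and 93.7 CPM in Control in the untimed pair, and 174 CPM in SOX17KO and 79.2 CPM in Control at 2 weeks. Pim1, a kinase gene induced by cytokines, was at 1277 CPM in SOX17KO and 351 CPM in Control in the untimed pair, and 509 CPM in SOX17KO and 267 CPM in Control at 2 weeks. The 10 lower were Ifitm1, Irf8, Gpm6b, Tpi1, Ccl3, Plcl1, Xcl1, Prf1, Esd and Ccl4. Irf8, an interferon regulatory factor gene, was at 58.7 CPM in SOX17KO and 162 CPM in Control in the untimed pair, and 39.0 CPM in SOX17KO and 123 CPM in Control at 2 weeks. Mixed barcodes held 82.5% of the Irf8 UMIs of untimed SOX17KO members, and without them the untimed log2 ratio was -3.44 in place of -1.46. None of these passed over all genes (adjusted p = 0.194 for Irf8 and 0.232 for Gpr183 without mixed barcodes, by edgeR's quasi-likelihood test).

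**Figure D5:**
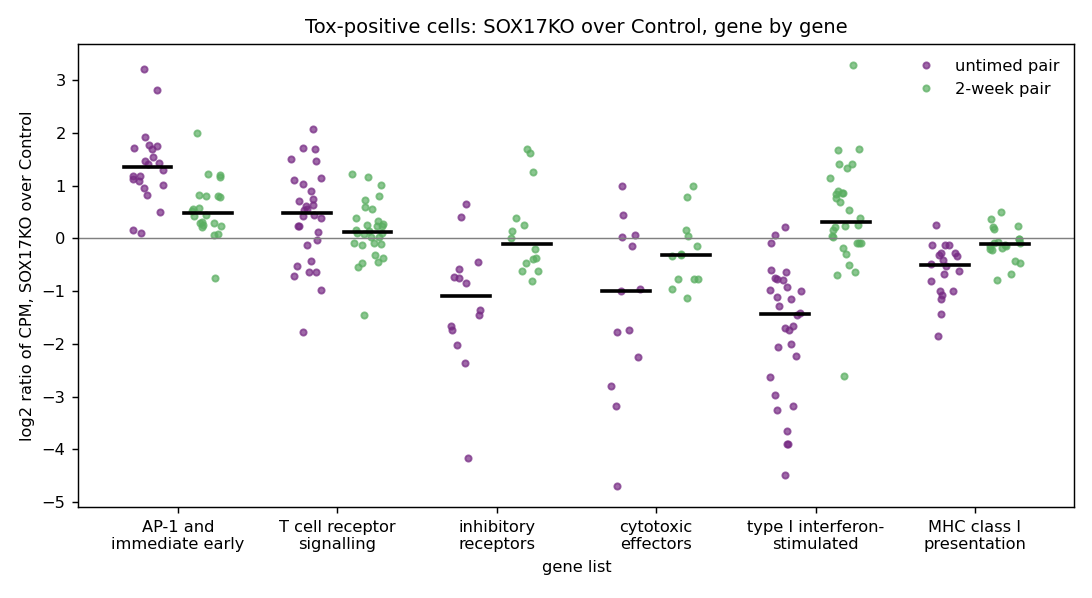
Each point is a gene of a list, at its log2 ratio of CPM in SOX17KO over Control within Tox-positive cells, for the untimed and the 2-week pair, and the black lines are medians. All AP-1 genes in the untimed pair and all but 1 at 2 weeks lie above 0, with medians of 1.35 and 0.48, and type I interferon-stimulated genes have a median of -1.43 in the untimed pair and 0.32 at 2 weeks.

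Inhibitory receptor genes were lower in untimed SOX17KO than in untimed Control, with a median log2 ratio of -1.10 over 14 genes and 7 past 2-fold lower, where 7.89% of all genes were. At 2 weeks the median was -0.10, with none past 2-fold lower, where 6.42% of all genes were, and 3 past 2-fold higher, where 10.4% were. Lag3, a receptor for MHC class II, was at 6.06 CPM in SOX17KO and 109 CPM in Control in the untimed pair, and 115 CPM in SOX17KO and 177 CPM in Control at 2 weeks. The untimed SOX17KO value was the lowest of the 4 by a wide margin, with a log2 ratio of -4.17 (95% interval -4.89 to -3.53) in the untimed pair and -0.62 (95% interval -1.06 to -0.20) at 2 weeks. Havcr2 was at -0.84 and -0.80, Pdcd1 at -0.57 and -0.46, Ctla4 at -0.46 and -0.37 and Entpd1 at -1.73 and -0.21. All 4 were lower in SOX17KO in both pairs, and none was called in the fit. Ikzf2 differed in sign between the pairs, with -1.95 (95% interval -2.06 to -1.84) and 1.28 (95% interval 1.11 to 1.44), and Cd200r1 did so too, with -2.02 (95% interval -2.30 to -1.76) and 1.26 (95% interval 0.66 to 1.86).

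Type I interferon-stimulated genes lay on opposite sides of 0 in the 2 pairs, a difference that was not tested. Many of these genes are known to carry a promoter element with 2 copies of GAAA. Over 30 genes tested, 20 were past 2-fold lower in untimed SOX17KO, where 7.89% of all genes were, and none past 2-fold higher, with a median log2 ratio of -1.43. At 2 weeks 7 were past 2-fold higher, where 10.4% of all genes were, and 1 lower, where 6.42% were, with a median of 0.32, and no gene was called in the fit over both pairs. Ifi27l2a, a small mitochondrial protein gene, was at 75.1 CPM in SOX17KO and 586 CPM in Control in the untimed pair, and 655 CPM in SOX17KO and 361 CPM in Control at 2 weeks. Trim30a was at 59.4 CPM in SOX17KO and 158 CPM in Control in the untimed pair, and 148 CPM in SOX17KO and 143 CPM in Control at 2 weeks, and Parp14 at -0.75 and -0.09 on the log2 scale. Rsad2, encoding the antiviral protein viperin, had 5 and 65 UMIs in untimed SOX17KO and Control and 20 and 18 in 2-week SOX17KO and Control. Ms4a4b and Ly6a, although on the list, hardly differed in the untimed pair (-0.09 and 0.06), and Isg15 was at 0.21. Tox-negative cells had list medians of -1.64 in the untimed pair and -0.15 at 2 weeks, and members without mixed barcodes -1.28 and 0.34. Without them 18 genes were past 2-fold lower in the untimed pair and 2 at 2 weeks, where 8.44% and 7.55% of all genes were.

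The element GAAANNGAAA was searched on both strands of the RefSeq promoters, from 250 bases before to 50 after each gene's start. It was found in 17 of the 28 list genes with a promoter in the table (60.7%) and in 1079 of 27025 genes (3.99%). The interferon gamma response list had it in 11 of 14, the cytotoxic list in 3 of 16 and the inhibitory receptors in 0 of 11. Among the tested list genes, 15 with the element had median log2 ratios of -1.28 in the untimed pair and 0.22 at 2 weeks, and 8 without it had -1.69 and 0.82. The 150 bases before the start of 4 list genes are shown to let the element be seen beside these values, with it in capitals (on the printed strand or as its reverse complement), all on the minus strand of GRCm38.p6. They lie at chr7:104465194-104465343 for Trim30a, chr12:26456453-26456602 for Rsad2, chr19:34601969-34602118 for Ifit1bl1 and chr4:156200819-156200968 for Isg15, whose 3 matches overlap.
Trim30a: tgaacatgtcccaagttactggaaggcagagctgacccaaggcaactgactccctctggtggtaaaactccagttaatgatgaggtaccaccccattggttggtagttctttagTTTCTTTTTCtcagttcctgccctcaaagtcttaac
Rsad2: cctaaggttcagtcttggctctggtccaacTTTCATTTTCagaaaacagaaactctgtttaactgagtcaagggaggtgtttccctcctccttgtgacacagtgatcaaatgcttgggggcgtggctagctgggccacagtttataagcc
Ifit1bl1: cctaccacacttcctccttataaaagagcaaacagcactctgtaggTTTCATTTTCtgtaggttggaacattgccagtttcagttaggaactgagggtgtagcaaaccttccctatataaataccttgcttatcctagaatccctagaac
Isg15: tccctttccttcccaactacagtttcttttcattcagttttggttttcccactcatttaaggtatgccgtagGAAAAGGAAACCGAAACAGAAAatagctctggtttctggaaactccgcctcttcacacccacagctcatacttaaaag
The match begins 36 bases before the start in Trim30a, 120 in Rsad2 and 104 in Ifit1bl1, and between 78 and 66 in Isg15. A match is a description of the letters and not of binding. Ifit1bl1 was lower in SOX17KO in both pairs (-3.65 and -2.62), while Isg15 was higher in both (0.21 and 1.41), so these genes with the element did not share a direction. The 2-week Isg15 ratio rests on few UMIs. In 2-week SOX17KO members with 3 or more Tox UMIs it had 23, at 65.5 CPM and at 34.5 CPM without mixed barcodes.

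MHC class I genes had small differences, with medians of -0.51 and -0.11 on the log2 scale in the untimed and 2-week pair. B2m, the light chain of class I molecules, was at 1512 CPM in SOX17KO and 1878 CPM in Control in the untimed pair, and 2239.7 CPM in SOX17KO and 2469 CPM in Control at 2 weeks. H2-K1 and H2-D1 were at -0.12 and -0.13 in the untimed pair, and the immunoproteasome genes Psmb8 and Psme1 at -1.08 and -0.81. The cell cycle genes left after the rule had medians of -0.75 and -0.10, where the rule itself removed cells with Mki67 and Top2a. Interferon gamma response genes had medians of -0.25 and 0.23 over 19 genes. Glycolysis and hypoxia genes were at -0.39 and -0.35 over 22, with Gapdh at -0.81 and -0.54 and Pgk1 at -0.97 and -0.42, and none called. Costimulatory receptors were at 0.03 and -0.08, chemokine receptor and migration genes at 0.33 and -0.09 and TGF-beta response and receptor genes at -0.10 and -0.04. The tissue residency list, which also held Ly6c2, was at 0.30 and 0.18. Of its 14 tested genes 6 were past 2-fold higher at 2 weeks, where 10.4% of all genes were. None of these lists held a called gene.

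In the untimed pair alone, without mixed barcodes, the largest ratios in SOX17KO were of Lmna, Cd40lg, Ramp3, Nebl, Emp1, Klf4, Tnfsf11 and Hlf. The UMI counts, shares of cells and levels given below for single genes include mixed barcodes. Cd40lg, the CD40 ligand better known from helper CD4 T cells, had 243 UMIs in 130 of 570 untimed SOX17KO members and 14 UMIs in 9 of 682 untimed Control members, although the rule admits no Cd4 UMI; whether some are CD4 T cells without a captured Cd4 molecule was not tested. It was found in 22.8% of those SOX17KO members and 1.32% of those Control members, and in 12.01% and 1.91% of the Tox-negative cells of the SOX17KO and Control library. The lowest were Galnt18, Gm156, Glp1r, Atp2b2, Nrgn, Spp1, Glis1 and Clec10a. Nrgn, the calmodulin-binding protein neurogranin, was at 2.42 CPM in SOX17KO and 139.5 CPM in Control in the untimed pair, and 53.4 CPM in SOX17KO and 35.03 CPM in Control at 2 weeks, and Spp1, encoding osteopontin, had 3 UMIs in untimed SOX17KO and 524 in untimed Control. These ratios compare 1 library with 1 library and carry no test.

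At 1 week the 7 SOX17KO and 4 Control members held 62533 and 26583 UMIs in all. A Pdcd1 UMI was found in 2 of 7 SOX17KO and 2 of 4 Control members, Tcf7 in 5 and 3, Ikzf2 in 4 and 3, Gzmb in 1 and 2, and Tnfsf11 in none of either. Lyz2, a myeloid gene, was found in 2 and 2 of them. So few cells show no more than that these genes were detectable.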

How the data were processed

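Immune cells sorted from pooled colon tumours were profiled in 6 libraries of 10x Genomics 3' v3 chemistry. The authors deposited unnormalised UMI counts per gene and cell barcode for each library. Cell Ranger 6.0.1 and the build mm10 are named per the submitters' processing notes, while the matrix headers name cellranger 7.0.1, so the version of each step is uncertain. The sources used here do not say how barcodes or doublets were filtered before deposit, and no doublet caller was run.

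The rule for members, the comparison cells and the gene lists were chosen with earlier results of these data known. Counts of Tox-positive and Tox-negative cells were summed per library, keeping sums of at least 20 cells, which left out the 1-week libraries. Sums were tested with edgeR 4.0.16 (TMM, filterByExpr, quasi-likelihood test) in R 4.3.3, with Benjamini-Hochberg adjustment at 0.05. Tox states were compared with library as a block, since both states come from the same library. Genotypes were compared with the pair as a block on 4 sums, and the interaction with genotype and with the pair used the same 8 sums. limma 3.58.1 and DESeq2 1.42.0 were alternatives, as were thinning to 2000 UMIs per cell (0 to 29 Tox-positive and 0 to 126 Tox-negative cells a library were shallower and left out) and leaving out mixed barcodes. In the thinned Tox-positive shares and the thinned fits, the Tox state was set again from the thinned counts. Untimed SOX17KO then had 335 Tox-positive and 1895 Tox-negative cells, against 570 and 1815 before. Thinned detection shares of single genes and gene pairs kept the members of the full counts. Ratios of 1 library over 1 library carry exact conditional binomial 95% intervals and shares exact Clopper-Pearson ones, which cover counting error only, and log2 odds had 0.5 added to each count and an approximate normal interval. Each group of a pair is 1 pooled library, and p-values measure only the spread between such libraries.

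Named genes were the called genes with the largest fold change, up to 12 per direction (for the Tox states also with an average log2 CPM of at least 5), the 8 largest ratios per pair and direction and the 10 largest shared by both pairs, each with at least 100 UMIs, and up to 6 genes per list with the highest mean CPM. Each was also ranked without mixed barcodes. Some genes that the rule names are not reported here. Promoters came from RefSeq on GRCm38.p6, where 28 of 36 genes of the interferon list matched.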

Additional observations from a re-analysis of the deposited data

Results flagged for a closer look

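Several genes of Tox-positive cells had log2 ratios of SOX17KO over Control of opposite sign in the untimed and the 2-week pair. With 1 library per genotype in each pair, none of these differences between the pairs was tested. Gzma stood at -4.70 in the untimed pair and 0.99 at 2 weeks, and Ikzf2 at -1.95 and 1.28. Of the 178 Gzma UMIs in 2-week SOX17KO members, 80 lay in 1 cell. Cd200r1 stood at -2.02 and 1.26, and Cd7, a surface protein of T and NK cells, at -1.23 and 2.19. Ifng ran the other way, with 0.92 in the untimed pair and -1.57 at 2 weeks.

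Among type I interferon-stimulated genes the list median was -1.43 in the untimed pair and 0.32 at 2 weeks. Ifi27l2a stood at -2.96 and 0.86, and Rsad2 at -3.18 and 1.70.

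Retnla was called by edgeR's quasi-likelihood test for its Tox-positive to Tox-negative difference in the untimed libraries minus that in the 2-week libraries, at -14.99 on the log2 scale (adjusted p = 0.000644), a fitted value that is no bound, since untimed Control members held 0 UMIs of it. Of its 402 UMIs in 2-week SOX17KO members, 383 lay in 1 barcode, and all were in mixed barcodes.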

How the results depend on the processing

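Counts of called genes depended on the processing. For 64 fold changes picked by hand 858 values were recomputed, of which 723 kept their side of the threshold, 31 lost it, 104 gained it and 0 reversed. Several genes with a fold change near 0 between Tox states, such as Pdcd1 and Nkg7, were not among them. The count of reversals therefore does not cover all genes named in the text. Genes higher and lower in Tox-positive cells numbered 17 and 10 under limma-voom, 4 and 16 after thinning, 6 and 4 under DESeq2, and 197 and 48 without an expression filter. They numbered 0 and 1 with a Cd8b1 UMI required, 1 and 0 without Trdc cells, and 0 and 0 with no replicate block. Leaving out 1 library gave 0 to 1 higher and 0 to 2 lower, with 0 and 0 without the untimed Control or the 2-week SOX17KO library. With mixed barcodes left out, an alternative chosen after seeing the data, they were 0 and 2, or 6 and 7 with thinning and 3 and 3 with limma-voom.

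Genes higher and lower in SOX17KO members numbered 0 and 0 under limma-voom, 49 and 29 after thinning, 61 and 11 under DESeq2, 11 and 0 with relative log expression factors, and 329 and 161 without a filter. They were 0 and 0 with Cd8b1 required, with a 5% mitochondrial limit and with no replicate block, 46 and 5 without Trdc cells, and 71 and 8 with at least 2 Tox UMIs. With mixed barcodes left out they were 0 and 0, or 0 and 2 with thinning and 45 and 34 with limma-voom. Leaving out a library was not run for this comparison, since no residual degree of freedom would remain. Interaction calls with genotype were 1 under limma-voom, 1 after thinning and 1 with mixed barcodes left out and thinning. Interaction calls with the pair were 0 under limma-voom, 15 after thinning, 0 without mixed barcodes and 18 with thinning as well. The untimed log2 odds of a Tox UMI were -3.10 after thinning. Except where the smaller set of genes, cells or libraries follows from the setting, the cause was not tested. With 70 members in 2-week SOX17KO, low genes there rest on few UMIs.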
